A study of Rattus norvegicus with 21 samples.

Results

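The proteasome genes on the array were followed in the livers of rats given BPDP. Members were all genes whose platform symbol begins with Psma, Psmb, Psmc, Psmd or Psme and a digit and which have a probe set naming that gene alone. The rule found 41 genes among the 14217 genes so represented. Of these, 39 encode proteasome subunits, assembly chaperones or activator caps, and 2 (Psmc3ip and Psme3ip1) carry the prefix without being subunits. The rule used symbols alone, but the family was chosen with earlier results of these data known. Psmb6 and Psme3 are named only by probe sets shared with other genes, and Psma8 and Psmb11 by none; they are not analysed here.

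The animals were male Harlan Sprague Dawley rats. BPDP (tert-butylphenyl diphenyl phosphate, an aryl phosphate flame retardant and plasticiser) was gavaged in corn oil once daily on 4 consecutive days, and the liver was collected on day 5. There were 6 vehicle arrays (corn oil alone) and 3 arrays at each of 64.6, 129.2, 258.1, 516.2 and 1032.5 mg/kg, from 0.169 mmol/kg at the lowest dose to 2.7 mmol/kg at the highest. The treatment protocol counts 5 vehicle rats whereas 6 vehicle arrays are listed, and the labels do not settle whether every array is a separate animal; the p-values measure the spread between these arrays.

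The proteasome is the protease that destroys proteins tagged with ubiquitin. Its barrel, the 20S core, has outer rings of alpha subunits that gate the entrance and inner rings of beta subunits that hold the cutting sites. The 19S cap binds ubiquitin chains, removes them and unfolds the substrate with a ring of ATPases. In the immunoproteasome, which interferon favours, the cutting subunits are exchanged for Psmb8, Psmb9 and Psmb10, and the core may carry a different cap built from Psme1 and Psme2. When proteasome activity falls short, the transcription factor Nfe2l1 (Nrf1) is known to raise the subunit genes together.

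Values are log2 signals. Array medians lay between 6.30 and 6.39, and arrays correlated at 0.984 to 0.995 across probe sets. Vehicle replicate 6 stood somewhat apart, with a mean correlation of 0.989 to the other vehicle arrays. The hepatocyte markers Alb, Ttr and Apoa1 averaged 15.34, 14.82 and 14.03, and none of the 7 measured hepatocyte markers was called at any dose by limma (unadjusted p under 0.05: 0, 0, 1, 1 and 2 markers by dose). Their mean log2 signal ran from 14.25 to 14.36 in vehicle, from 14.21 to 14.26 at 258.1 mg/kg, from 14.21 to 14.24 at 516.2 mg/kg, below every vehicle array, and from 14.22 to 14.30 at 1032.5 mg/kg. The 5' minus 3' difference of the control transcripts, a measure of RNA integrity, was -1.95 ± 0.29 in vehicle (SD, n = 6). By ascending dose it was -1.97 ± 0.26, -1.73 ± 0.24, -2.03 ± 0.93, -2.30 ± 0.64 and -1.54 ± 0.37 (SD, n = 3 each). It was highest on 258.1 mg/kg replicate 3 and 1032.5 mg/kg replicates 2 and 3 (-1.35, -1.37 and -1.28). These arrays also had the highest means over the members (10.64, 10.65 and 10.63). The next highest means, 10.62 and 10.59 on 516.2 mg/kg replicates 1 and 3, went with -2.49 and -2.83. A link between integrity and these means was not tested. With the 5' minus 3' difference as a covariate the numbers of members called were 0, 0, 1, 1 and 3 from the lowest dose to the highest.

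The proteasome genes changed little at any dose. A gene is said to be called, or to have risen or fallen, where limma's p-value was under 0.05 after Benjamini-Hochberg adjustment across the 31042 probe sets tested. At 1032.5 mg/kg 3 of the 41 genes were called, all higher: Psmd5, Psme1 and Psma6, by 1.27-fold to 1.40-fold. That is 7.32% of the members, beside 8.95% of all genes called in either direction, 4.81% higher and 4.14% lower. At 516.2 mg/kg 1 gene was called (Psme1, higher), where 8.93% of all genes were called, 6.30% higher and 2.64% lower. At 258.1 mg/kg it was again Psme1 alone, where 3.56% of all genes were called, 2.23% higher and 1.33% lower. At 129.2 mg/kg 0 members were called by limma, with 3 at an unadjusted p under 0.05, and 0.521% of all genes were called (0.352% higher, 0.169% lower). At 64.6 mg/kg 0 members were called, with 4 at an unadjusted p under 0.05, and the share of all genes was 0.387% (0.197% higher, 0.190% lower). No member was called lower in this fit. With array weights, which count arrays unequally, 2 of the 41 (Psmb8 and Psmb10) were called at 129.2 mg/kg, both lower, beside 8.12% of all genes. At 1032.5 mg/kg these weights gave 14 of the 41, all higher, beside 13.1% of all genes. All 5 comparisons share the vehicle arrays.

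Smaller differences nevertheless leaned upward with dose. The change against vehicle was above 0 for 9, 20, 26, 33 and 32 of the 41 members, from the lowest dose to the highest. The corresponding shares of all genes were 49.2%, 47.8%, 51.3%, 50.4% and 46.7%. The members' median log2 change was -0.06 at the lowest dose, -0.00 at the next, 0.09 at both middle ones (258.1 and 516.2 mg/kg) and 0.17 at the highest, while the median of all genes stayed between -0.01 and 0.01. An unadjusted p under 0.05 was found for 4, 3, 7, 8 and 17 of the 41 members in the same order, beside 9.32%, 9.11%, 16.6%, 27.0% and 23.3% of all genes. With cyclic loess normalization between arrays the lean at 516.2 mg/kg was gone, with a median of 0.01 and 21 of 41 members above 0. At 1032.5 mg/kg it remained at 0.14 with 31 above 0. Members and all genes were not compared here at matched signal. Of the 14 other, dimmer probe sets of members, 6, 7, 9, 8 and 8 had the sign of the chosen one, from the lowest dose to the highest. Their changes at 1032.5 mg/kg ran from -0.32 to 0.33.

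**Figure D1:**
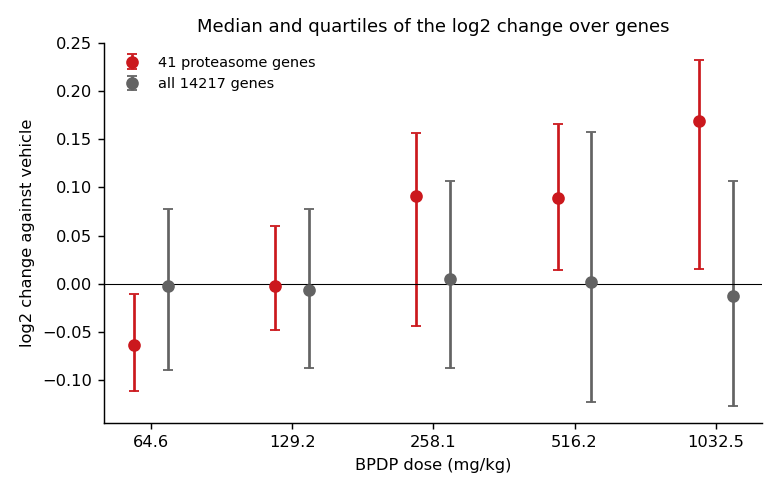
Median log2 change against vehicle (points) with lower and upper quartiles (bars) over the 41 proteasome genes and over all 14217 genes, by dose in mg/kg. The proteasome median lies at -0.06 at 64.6 mg/kg and at 0.17 at 1032.5 mg/kg, and the median of all genes stays near 0.

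Averaged within each array, the 41 genes gave a mean log2 signal of 10.39 at the lowest and 10.57 at the highest vehicle array, with a median of 10.47. The 3 arrays at 64.6 mg/kg read 10.40, 10.39 and 10.41, within the vehicle range and below the vehicle mean. At 129.2 mg/kg they read 10.53, 10.42 and 10.43, and at 258.1 mg/kg 10.49, 10.47 and 10.64. The higher doses gave 10.62, 10.49 and 10.59 at 516.2 mg/kg and 10.55, 10.65 and 10.63 at 1032.5 mg/kg. At these 2 doses all 3 arrays lay above the vehicle mean of 10.47 ± 0.07 (SD, n = 6) and 2 of 3 above the highest vehicle array, which was replicate 6. The groups therefore overlapped at every dose. At 258.1 mg/kg the mean change of 0.0673 was 0.0154 without replicate 3, the highest array of that group. The group mean at 1032.5 mg/kg, 10.61 ± 0.06 (SD, n = 3), stood 0.14 above vehicle, a 1.11-fold difference. This average is a description and was not tested.

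**Figure D2:**
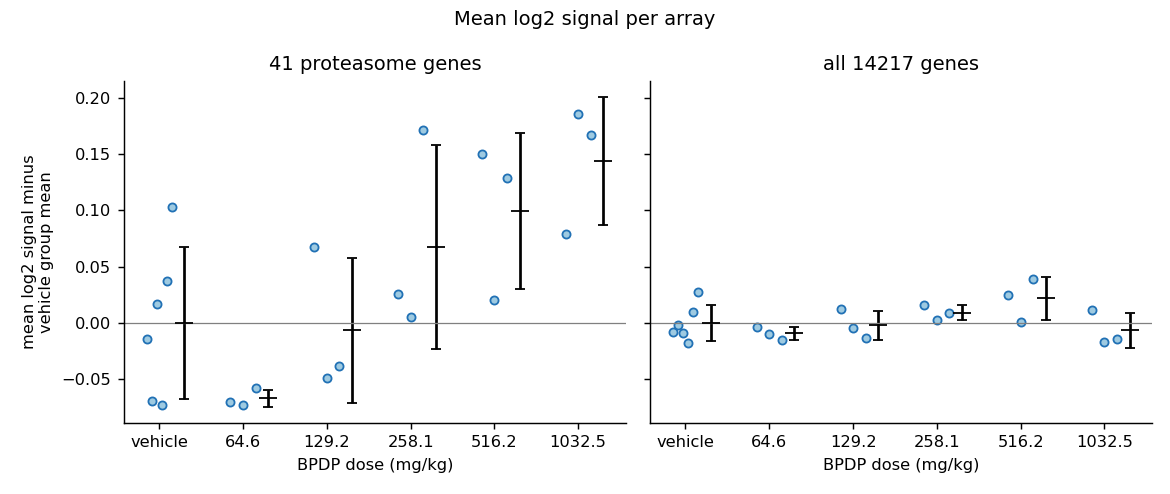
Mean log2 signal per array over the 41 proteasome genes (left) and over all 14217 genes (right), each as a difference from the vehicle group mean, by dose in mg/kg. Points are arrays, horizontal ticks are group means and bars are 1 SD. The 3 proteasome means at 1032.5 mg/kg lie above 0 but overlap the vehicle arrays, and the right panel stays within a narrower band.

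The 95% intervals are for each gene on its own and do not cover the 41 members jointly. At 1032.5 mg/kg the 95% interval of the change lay within 1.5-fold either way for 37 of 41 members, beside 83.5% of all genes. The 4 exceptions, Psmd5, Psmb7, Psmb9 and Psma2, all reached past 1.5-fold on the upper side only. In ascending order the lower doses gave 41, 39, 39 and 38 members, beside 90.8%, 91.0%, 87.0% and 82.4% of all genes. The members' median spread within groups was 0.12 (SD), against 0.15 over all genes, with Psmd7 the tightest at 0.07 and Psmb8 the widest at 0.38. The members were also brighter, with a median signal at percentile 94.4 of the probe sets, against 67.9 for all genes. The changes, the spreads and the intervals were not compared at matched signal.

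**Figure D3:**
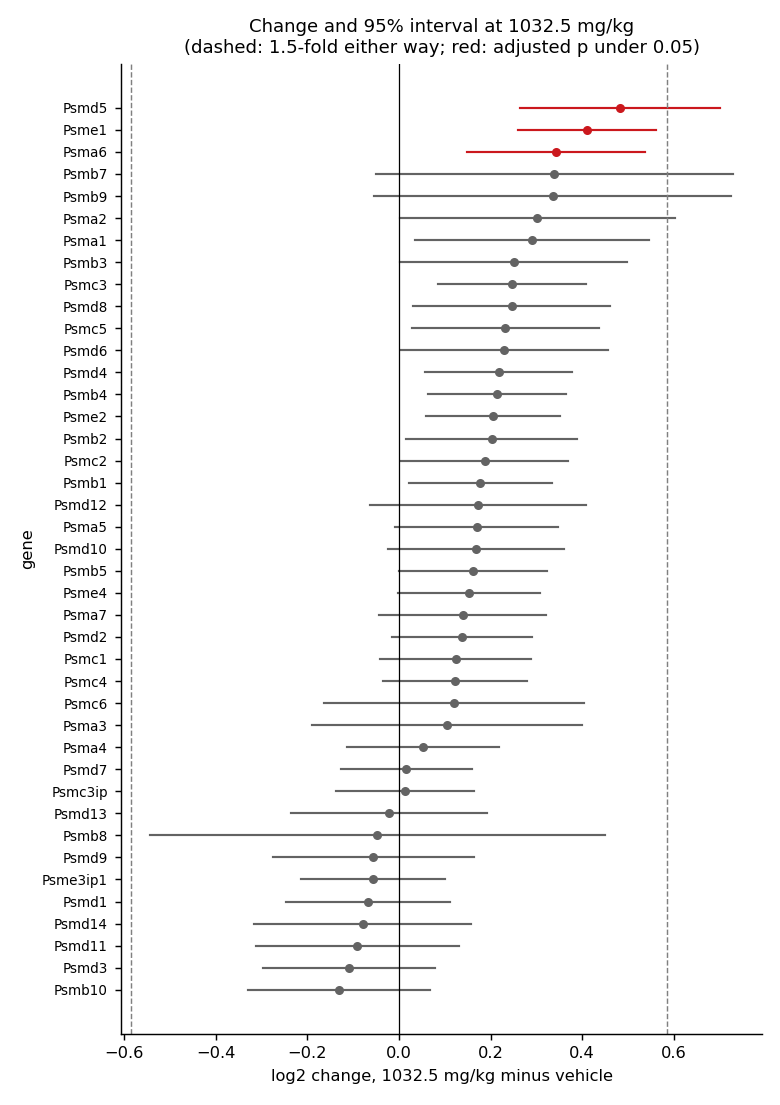
Log2 change at 1032.5 mg/kg against vehicle for each of the 41 genes (points) with its 95% interval from the limma fit (bars), sorted by change. Dashed lines mark 1.5-fold either way, and the called genes Psmd5, Psme1 and Psma6 are red. The intervals of 37 genes stay between the dashed lines.

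Psme1, a subunit of the interferon-inducible activator cap, rose at the 3 highest doses. Its log2 signal in vehicle had a lowest value of 11.99, a median of 12.14 and a highest value of 12.21. The arrays read 12.21, 12.30 and 12.36 at 64.6 mg/kg, 12.32, 12.23 and 12.42 at 129.2 mg/kg and 12.34, 12.50 and 12.42 at 258.1 mg/kg. They read 12.53, 12.44 and 12.52 at 516.2 mg/kg and 12.45, 12.52 and 12.61 at 1032.5 mg/kg. From 129.2 mg/kg upward every dosed array lay above every vehicle array. The fold change was 1.23 at 258.1 mg/kg (log2 0.30, SE 0.07; adjusted p = 0.0268, limma), 1.30 at 516.2 mg/kg (log2 0.38; adjusted p = 0.00339) and 1.33 at 1032.5 mg/kg (log2 0.41; adjusted p = 0.00103). The call at 258.1 mg/kg, and with it the count of 1 member at that dose, was lost without vehicle replicate 1 (adjusted p = 0.0612), vehicle replicate 5 (0.0578) or any of the 258.1 mg/kg replicates 1, 2 and 3 (0.0579, 0.113 and 0.122). A second probe set for Psme1, with a mean log2 signal of 6.26 near the array median, gave 0.16 at 258.1, 0.18 at 516.2 and -0.02 at 1032.5 mg/kg (adjusted p = 0.466, 0.232 and 0.937) and did not follow the first.

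Psmd5, a chaperone that assists assembly of the 19S base, rose at 1032.5 mg/kg. Its vehicle arrays ran from 9.70 through a median of 9.80 to 9.90. The dosed arrays read 9.81, 9.83 and 9.89 at 64.6 mg/kg, 10.05, 10.04 and 9.80 at 129.2 mg/kg, and 10.01, 9.89 and 10.40 at 258.1 mg/kg. At 516.2 mg/kg they read 9.87, 10.12 and 10.26, and at 1032.5 mg/kg 10.35, 10.37 and 10.11. Only the highest dose had all 3 arrays above all vehicle arrays, with a fold change of 1.40 (log2 0.48, SE 0.10; adjusted p = 0.00634, limma). At 258.1 and 516.2 mg/kg its changes of 0.30 and 0.29 had adjusted p-values of 0.162 and 0.110. Without the 1032.5 mg/kg replicate 2 the adjusted p was 0.0544.

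Psma6, an alpha-ring subunit, rose at 1032.5 mg/kg as well. Its vehicle values were the more scattered, from 11.94 through a median of 12.14 to 12.44, the last being replicate 6. The arrays at 64.6 mg/kg (12.18, 12.17 and 12.06), 129.2 mg/kg (12.11, 12.04 and 12.25), 258.1 mg/kg (12.34, 12.26 and 12.48) and 516.2 mg/kg (12.40, 12.22 and 12.29) overlapped that range. The 3 arrays at 1032.5 mg/kg read 12.48, 12.50 and 12.49, all above vehicle, for a fold change of 1.27 (log2 0.34, SE 0.09; adjusted p = 0.0302, limma). This call was lost without vehicle replicate 1, 3 or 4 (adjusted p = 0.0629, 0.0555 and 0.0628) and without 1032.5 mg/kg replicate 1, 2 or 3 (0.0880, 0.106 and 0.0907). Without the 1032.5 mg/kg replicate 2 only 1 of the 41 members, Psme1, was called at that dose.

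**Figure D4:**
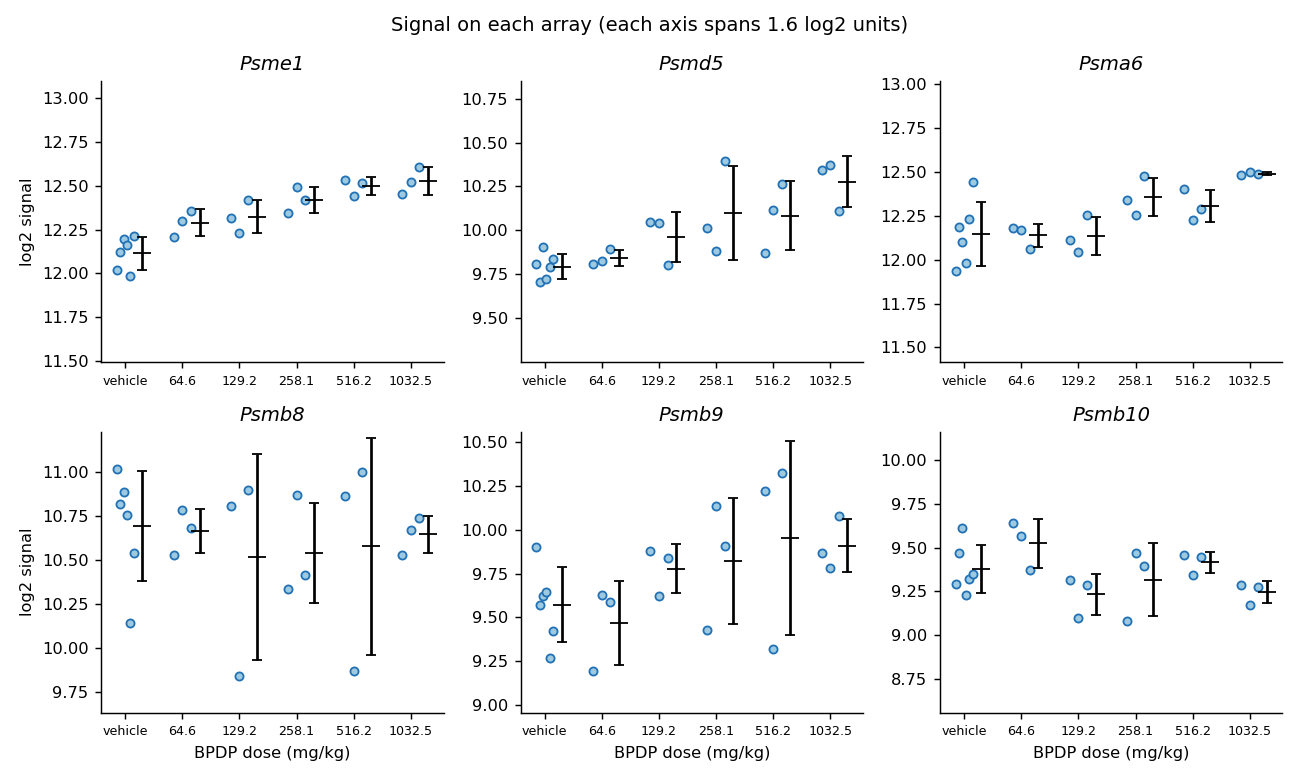
Log2 signal on each array for the called genes Psme1, Psmd5 and Psma6 (upper row) and the immunoproteasome catalytic genes Psmb8, Psmb9 and Psmb10 (lower row), by dose in mg/kg. Points are arrays, ticks are group means, bars are 1 SD, and every axis spans the same log2 range. The upper genes reach values at 1032.5 mg/kg above all vehicle arrays, and the lower genes overlap vehicle at every dose.

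The promoters of these genes were read for motifs known from proteasome regulation. RefSeq windows (build GRCr8) were at hand for 37 of the 41 members, and the 250 bases before the start were searched on both strands. The start is that of the transcript the table uses, which is the outer edge of the annotated gene for 21 of the 37 members and lies inside it for 16, by more than 250 bases for 6. For Psma6 and Psmd5 it lies 13671 and 3595 bases inside the gene and for Psme2 304 bases, so these windows do not show the bases before the outermost start. TGACNNNGC, the core of sites bound by Nrf1 and Nrf2, was in 6 of 37 (16.2%), beside 10.2% of 27457 promoters of that length. CCAAT, the NF-Y site, was in 19 (51.4%) beside 34.3%. The interferon-stimulated response element, read as GAAA repeated after any 2 bases, was in 5 (13.5%: Psma4, Psmb3, Psmb10, Psmd7 and Psme2) beside 3.29%. Matches may overlap, as CCAAT and TGACNNNGC share a base in Psmb2. No match was in 13 of the 37 windows, among them those of the 3 genes called against vehicle. The cutting subunit Psmb5, the inducible subunit Psmb10 and the cap subunit Psme2 hold matches. A match is a description of the letters, not a site in use. The 120 bases before the start are shown for the 3 called genes and for these 3 with a match, on the gene's own strand, with matches in capitals: Psma6 is at chr6:78514227-78514346 (plus strand), Psmd5 at chr3:38548491-38548610 (minus), Psme1 at chr15:33038851-33038970 (plus), Psme2 at chr15:33052752-33052871 (minus), Psmb5 at chr15:32047380-32047499 (minus) and Psmb10 at chr19:50743293-50743412 (minus).
Psma6: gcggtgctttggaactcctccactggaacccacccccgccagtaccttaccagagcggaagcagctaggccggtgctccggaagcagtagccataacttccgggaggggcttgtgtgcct
Psmd5: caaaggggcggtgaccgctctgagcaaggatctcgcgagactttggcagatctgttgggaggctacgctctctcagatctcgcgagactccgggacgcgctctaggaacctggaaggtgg
Psme1: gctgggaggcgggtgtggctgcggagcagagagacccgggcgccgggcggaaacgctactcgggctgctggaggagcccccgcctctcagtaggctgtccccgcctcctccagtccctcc
Psme2: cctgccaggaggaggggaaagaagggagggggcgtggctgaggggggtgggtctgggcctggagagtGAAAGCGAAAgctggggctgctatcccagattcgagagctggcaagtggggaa
Psmb5: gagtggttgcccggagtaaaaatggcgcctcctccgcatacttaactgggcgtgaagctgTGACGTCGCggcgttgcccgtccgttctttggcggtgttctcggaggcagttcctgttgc
Psmb10: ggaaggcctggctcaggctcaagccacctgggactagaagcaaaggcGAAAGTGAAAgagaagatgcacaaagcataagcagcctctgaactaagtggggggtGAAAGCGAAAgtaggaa

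Within the 20S core the constitutive subunits leaned downward at the lowest dose and upward at the highest. The 13 measured were 7 alpha, 4 structural beta and the catalytic Psmb5 and Psmb7. In ascending order of dose 1, 8, 12, 11 and 13 of them had a change above 0. Their medians in that order were -0.09, 0.00, 0.14, 0.03 and 0.20, lower at 516.2 than at 258.1 mg/kg. At 1032.5 mg/kg the range ran from 0.05 for Psma4 to 0.34 for Psma6. There the alpha-ring mean was above its highest vehicle array on 0 of 3 arrays. The structural beta and the catalytic beta means were each above theirs on 2 of 3. By limma 0 of the 13 were called below 1032.5 mg/kg and 1 at that dose; at an unadjusted p under 0.05 the numbers were 1, 0, 1, 1 and 8 from the lowest dose to the highest. Psmb4, a structural beta subunit, had all 3 arrays above all vehicle arrays at 516.2 and at 1032.5 mg/kg, with changes of 0.23 and 0.21 and adjusted p-values of 0.0649 and 0.0883. The extremes of the structural beta group at 1032.5 mg/kg were Psmb3 (0.25; adjusted p = 0.272) and Psmb1 (0.18; adjusted p = 0.202).

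The cutting subunits did not pass the test. Psmb5, which carries the chymotrypsin-like activity, ran from 11.77 through a median of 11.93 to 12.08 in vehicle and read 11.88, 12.24 and 12.13 at 1032.5 mg/kg. Its change there was 0.16 (95% interval 0.00 to 0.32; adjusted p = 0.278, limma). Psmb7, the trypsin-like subunit, ran from 9.55 through 10.02 to 10.26 in vehicle and read 9.72, 10.50 and 10.57 at 1032.5 mg/kg. The last pair exceeded every vehicle array and the first lay low in the vehicle range, so that the change of 0.34 had an interval from -0.05 to 0.73 (adjusted p = 0.372).

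The 3 immunoproteasome catalytic genes did not move together, and 0 of 3 were called at any dose by limma; 0 had an unadjusted p under 0.05 either. With array weights Psmb8 and Psmb10 were called lower by limma at 129.2 mg/kg (-0.73 and -0.26, adjusted p = 0.0224 and 0.0464), beside 8.12% of all genes called. At that dose replicate 2 had a weight of 6.18 and the other arrays 0.615 and 0.502. Psmb8 ran from 10.14 through a median of 10.79 to 11.02 in vehicle and read 10.53, 10.67 and 10.74 at 1032.5 mg/kg (change -0.05, 95% interval -0.54 to 0.45; adjusted p = 0.956). Its lowest arrays were 129.2 mg/kg replicate 2 at 9.84 and 516.2 mg/kg replicate 2 at 9.87, in groups whose other arrays all read 10.80 or more. Psmb9 ran from 9.27 through 9.60 to 9.90 in vehicle and read 9.87, 9.78 and 10.08 at 1032.5 mg/kg (change 0.34, interval -0.06 to 0.73; adjusted p = 0.379). At 516.2 mg/kg its arrays read 10.22, 9.32 and 10.32, where replicate 2 was again the low one and without it Psmb9 was called, which made 2 members called at that dose. Psmb10 ran from 9.23 through 9.33 to 9.61 in vehicle and read 9.29, 9.18 and 9.27 at 1032.5 mg/kg (change -0.13, interval -0.33 to 0.07; adjusted p = 0.540).

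Immune cells carry much immunoproteasome, so their markers are given beside these values. Of 6 measured Kupffer cell markers 2 were called lower and all 6 had an unadjusted p under 0.05 at 1032.5 mg/kg, and their mean log2 signal ran from 9.31 to 9.98 in vehicle and from 8.81 to 9.20 at 1032.5 mg/kg. Of 10 measured lymphocyte markers 1 was called lower at 516.2 mg/kg and 2 at 1032.5 mg/kg, with means of 6.13 to 6.57 in vehicle and 5.94 to 6.11 at 1032.5 mg/kg. The T cell markers Cd3e and Cd3d averaged 6.04 and 4.82, below the array median. Of 4 neutrophil markers 1 was called lower at 516.2 mg/kg, with means of 5.00 to 6.47 in vehicle and 4.93 to 5.10 at that dose. At 1032.5 mg/kg the Kupffer cell and lymphocyte means of all 3 arrays lay below every vehicle array, while Psme1 was above vehicle. Their part in the immunoproteasome values was not tested, and in bulk liver fewer cells of a type and less RNA per cell cannot be told apart.

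In the 19S base, the 6 ATPases that unfold the substrate had changes above 0 in 6 of 6 genes at both 516.2 and 1032.5 mg/kg, with medians of 0.17 and 0.16, and 1 of 6 above 0 at 64.6 mg/kg. By limma 0 of 6 were called at any dose; 3 had an unadjusted p under 0.05 at each of the highest doses. Psmc3 had all 3 arrays (10.82, 10.90 and 10.80) above the highest vehicle array (10.69) at 1032.5 mg/kg, with a change of 0.25 (adjusted p = 0.0670). By its chosen probe set Psmc6 was the lowest of the ring there (0.12, adjusted p = 0.737). At 516.2 mg/kg Psmc6 changed by 0.39 with an adjusted p of 0.0993. A second probe set of it with nearly the same mean signal gave 0.34 with 0.0435, the single other member probe set of 14 to pass at any dose. At 1032.5 mg/kg that second probe set gave 0.29 (adjusted p = 0.101), above Psmc3, and a dimmer one gave -0.08 (adjusted p = 0.836). The rank of Psmc6 in the ring therefore depended on the probe set. Psmc4 changed by 0.12 at 1032.5 mg/kg (95% interval -0.04 to 0.28; adjusted p = 0.444). Of the non-ATPase members, the ubiquitin receptor Psmd4 changed by 0.22 (adjusted p = 0.107) and the scaffold Psmd1 by -0.07 (interval -0.25 to 0.11; adjusted p = 0.771).

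The 19S lid holds the enzyme that removes ubiquitin chains, and its changes leaned downward at the low doses. All 8 lid genes had changes below 0 at 64.6 mg/kg, with a median of -0.18, and all 3 arrays had a lid mean below the lowest vehicle array (10.15 to 10.27 against 10.28). At 129.2 mg/kg 2 of 8 were above 0, at 258.1 mg/kg 2, at 516.2 mg/kg 6 and at 1032.5 mg/kg 4, where the median was -0.00. By limma 0 of 8 were called at any dose, with 2, 2, 1, 0 and 2 at an unadjusted p under 0.05. Psmd14, that deubiquitinating enzyme, ran from 10.06 through a median of 10.25 to 10.60 in vehicle and read 10.06, 9.93 and 9.94 at 64.6 mg/kg and 10.12, 9.99 and 9.78 at 129.2 mg/kg. The arrays at 64.6 mg/kg all lay below vehicle, as for 2.20% of all genes, but only just (highest 10.0583, lowest vehicle array 10.0603). The changes of -0.30 and -0.31 at 64.6 and 129.2 mg/kg had adjusted p-values of 0.440 and 0.446 (limma). At 1032.5 mg/kg Psmd14 changed by -0.08 (interval -0.32 to 0.16; adjusted p = 0.801). At that dose the lid ran from Psmd3 (-0.11; adjusted p = 0.608) to Psmd8 (0.25; adjusted p = 0.197), and Psmd8 was called without the 1032.5 mg/kg replicate 1 (0.39; adjusted p = 0.0311). A further probe set of Psmd7, another lid subunit, gave 0.33 (adjusted p = 0.102) where the main one gave 0.02. For Psmd11 a further probe set gave -0.39 at 258.1 and -0.32 at 1032.5 mg/kg where the main one gave -0.20 and -0.09. A dim probe set of Psmd11 gave 0.08 and -0.03. The further probe sets of Psmd14 gave -0.30 and -0.29 at 64.6 mg/kg but 0.00 and -0.07 at 129.2 mg/kg.

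**Figure D5:**
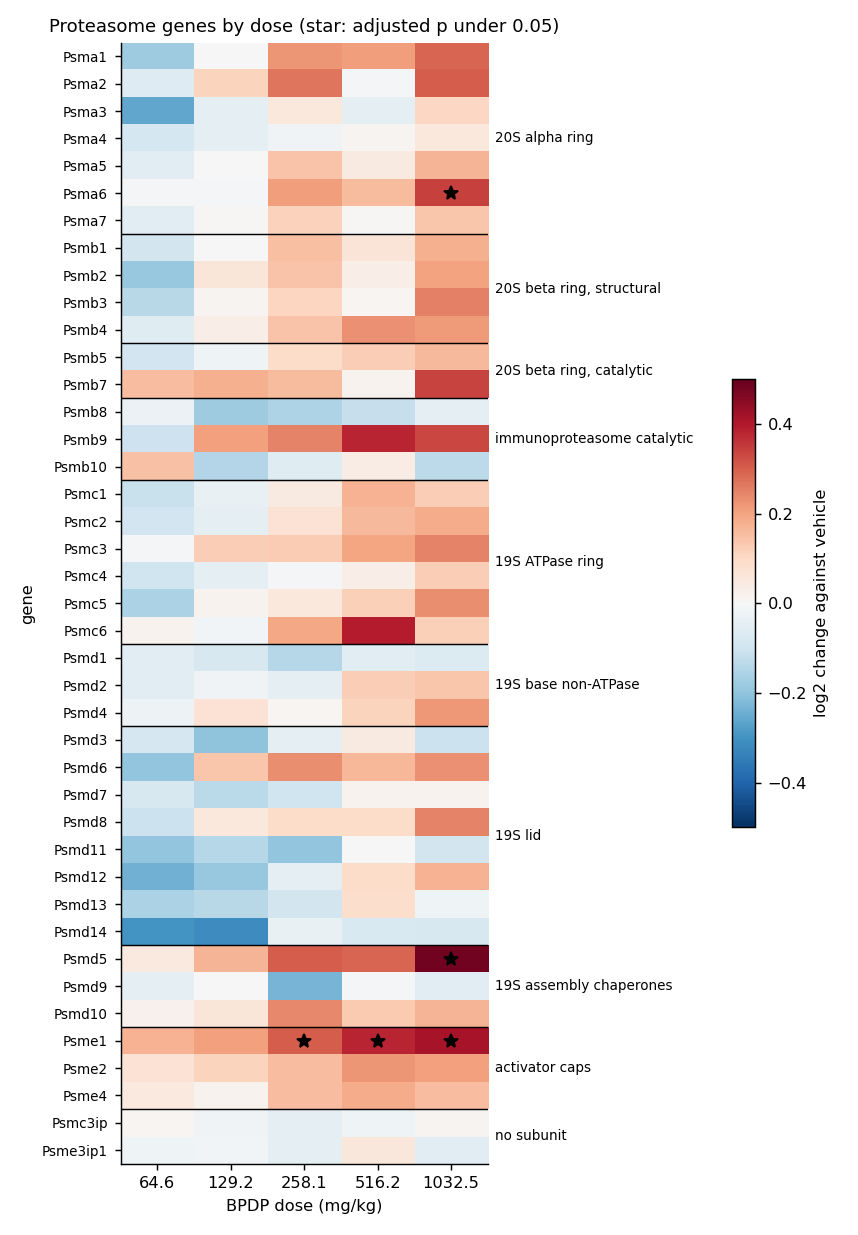
Log2 change against vehicle for each of the 41 genes (rows, ordered by role in the proteasome) at each dose in mg/kg (columns), with red above and blue below 0 and a star where the adjusted p was under 0.05. Stars stand at Psme1 from 258.1 mg/kg upward and at Psmd5 and Psma6 at 1032.5 mg/kg, and all 8 lid genes are blue at 64.6 mg/kg.

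Beside Psme1, the caps Psme2 and Psme4 leaned the same way without passing. Psme2, the partner of Psme1 in the ring, ran from 10.73 through a median of 10.81 to 10.88 in vehicle and read 11.05, 10.95 and 11.07 at 516.2 mg/kg and 10.99, 11.03 and 11.01 at 1032.5 mg/kg. All 6 of these arrays lay above vehicle, with changes of 0.22 and 0.21 (adjusted p = 0.0685 and 0.0947, limma). Psme4, a large single-chain cap, changed by 0.19 and 0.15 (adjusted p = 0.151 and 0.293), while 2 further probe sets of it gave 0.20 and -0.21 at 1032.5 mg/kg. The mean over the 3 caps exceeded the highest vehicle array on 3 of 3 arrays at each dose from 258.1 mg/kg upward. The other assembly chaperones, Psmd9 and Psmd10, changed by -0.06 and 0.17 at 1032.5 mg/kg (adjusted p = 0.859 and 0.367).

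The number of members with all 3 dosed arrays above all 6 vehicle arrays was 0, 1, 2, 5 and 6 from the lowest dose to the highest, beside 3.23%, 3.03%, 5.66%, 8.97% and 6.89% of all genes. All 3 arrays lay below vehicle for 1, 0, 0, 0 and 0 members, beside 2.20%, 3.52%, 5.25% and 7.08% of all genes at 64.6, 258.1, 516.2 and 1032.5 mg/kg and 285 of the 14217 genes at 129.2 mg/kg. The 2 genes that are no subunits stood near 0. Psmc3ip, a factor of meiotic recombination, changed by 0.01 and Psme3ip1, a binding partner of the nuclear cap, by -0.06 at 1032.5 mg/kg (adjusted p = 0.959 and 0.779). No member differed between any dose and the next lower one by limma, with 3, 1, 0 and 0 at an unadjusted p under 0.05 and 0% of all genes called.

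A slope on the dose step (vehicle 0, then 1 to 5) uses all 21 arrays. It was called as rising for 7 members (Psma1, Psma6, Psmb4, Psmc3, Psmd5, Psme1 and Psme2) and as falling for 0, beside 8.76% of all genes rising and 6.25% falling; 32 of the 41 slopes were above 0, beside 47.5% of all genes. Psme1 had the smallest adjusted p (3.71e-05; 0.08 log2 units per step), followed by Psmd5 (0.000682; 0.09 per step). Without vehicle replicate 5 the count was 13 and without vehicle replicate 6 it was 14, where 16.2% of all genes were called. With all 21 arrays other probe sets gave adjusted p-values for the slope of 0.858 for Psme1, 0.00428 for Psmc6 and 0.0316 for Psmd7 (limma). Which members had a called slope therefore depended on the probe set. Over the 15 dosed arrays alone, which leaves the vehicle out, 38 of 41 slopes were above 0, beside 48.4% of all genes. Of these 4 were called, all rising (Psma6, Psmc2, Psmc5 and Psmd12), beside 2.28% of all genes rising and 1.13% falling. That count was 2 without the 64.6 mg/kg replicate 1 or the 129.2 mg/kg replicate 2, and 0 without the 64.6 mg/kg replicate 2, the 64.6 mg/kg replicate 3 or the 1032.5 mg/kg replicate 2.

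Genes that act with the proteasome were taken from a list of 42, of which 36 were measured. At 1032.5 mg/kg 4 were called higher and 1 lower (13.9% of the 36), beside 8.95% of all genes called. At 516.2 mg/kg 3 were higher and 1 lower (11.1%), beside 8.93% of all genes. At 258.1 and at 64.6 mg/kg 0 were higher and 1 lower (2.78% each), beside 3.56% and 0.387%. At 129.2 mg/kg none was called by limma, beside 0.521% of all genes, with 1 at an unadjusted p under 0.05. The transcription factor Nfe2l1 ran from 8.24 through a median of 8.91 to 9.07 in vehicle and read 9.57, 9.46 and 9.34 at 1032.5 mg/kg, all above vehicle. The lowest vehicle value was that of replicate 6, and the other vehicle arrays lay between 8.84 and 9.07. At 64.6 mg/kg all 3 arrays (9.15, 9.11 and 9.27) were also above vehicle. Group means were 9.18, 9.10, 8.98 and 9.11 at 64.6, 129.2, 258.1 and 516.2 mg/kg, beside 8.83 in vehicle, with no call by limma. At 1032.5 mg/kg Nfe2l1 rose 1.55-fold (log2 0.63, SE 0.14, adjusted p = 0.00769 by limma). Over all alternatives the log2 change at that dose ran from 0.49 to 0.90. Without the 1032.5 mg/kg replicate 1 the adjusted p was 0.0533. Nfe2l2 (Nrf2), its relative in the oxidative stress response, changed by -0.30 (95% interval -0.67 to 0.07; adjusted p = 0.425). Pomp, which matures the 20S core and is a known target of the same control, changed by 0.04 (interval -0.16 to 0.24; adjusted p = 0.893).

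Among proteins that bind the proteasome, the inhibitor Psmf1 rose 1.32-fold at 516.2 mg/kg and 1.27-fold at 1032.5 mg/kg (adjusted p = 0.00502 and 0.0107); the latter was 0.0654 without the 1032.5 mg/kg replicate 1. Uchl5, a deubiquitinating enzyme of the 19S cap, rose 1.33-fold at 516.2 mg/kg (adjusted p = 0.0111). The ubiquitin shuttle Ubqln2 rose 1.25-fold and 1.27-fold at these doses (adjusted p = 0.0378 and 0.0268). At 1032.5 mg/kg that call was lost without vehicle replicate 1 (adjusted p = 0.0511) or 1032.5 mg/kg replicates 1 or 2 (0.208 and 0.0812), at 516.2 mg/kg without vehicle replicate 1, 3, 5 or 6 (0.0661, 0.0638, 0.0517 and 0.0560) or 516.2 mg/kg replicate 1 or 3 (0.0673 and 0.224), and a second probe set gave -0.01 and -0.08. Sqstm1, the autophagy receptor p62, rose 1.33-fold at 1032.5 mg/kg (adjusted p = 0.0440), a call lost without vehicle replicate 1, 2, 4, 5 or 6 (adjusted p = 0.0541, 0.0845, 0.0617, 0.0804 and 0.0733) or 1032.5 mg/kg replicate 1 or 2 (0.142 and 0.225). Over all alternatives Sqstm1 was called in 7 of 20, with adjusted p-values from 0.0155 to 0.249.

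Irf1, a transcription factor of the interferon response that drives Psmb9 and Tap1, fell. Its vehicle arrays ran from 9.003 through a median of 9.26 to 9.91, and every dosed array was lower than all of them, at 8.01 to 8.46 for 1032.5 mg/kg. The log2 changes were -0.98, -0.87, -0.84, -1.01 and -1.14 from the lowest dose to the highest (adjusted p = 0.0330, 0.0644, 0.0238, 0.00406 and 0.000858, limma). The call at 64.6 mg/kg was lost without vehicle replicate 3 or 5 (0.0542 and 0.0801) or 64.6 mg/kg replicate 1, 2 or 3 (0.140, 0.195 and 0.0945), and that at 258.1 mg/kg without 258.1 mg/kg replicate 1 or 3 (0.185 and 0.152). Over all alternatives the calls held in 12 of 19 at 64.6 mg/kg (adjusted p from 0.0208 to 0.332) and in 15 of 19 at 258.1 mg/kg (0.00924 to 0.185). Of the other 6 measured genes of antigen processing and interferon none was called at any dose by limma; with Irf1 the list had 1, 1, 1, 2 and 1 genes at an unadjusted p under 0.05 by dose. The peptide transporter Tap1 changed by 0.22 at 1032.5 mg/kg (95% interval -0.18 to 0.62; adjusted p = 0.631) and B2m by 0.02 (interval -0.14 to 0.18; adjusted p = 0.933).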

How the data were processed

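Rat liver RNA was measured on 21 1-colour Affymetrix rat arrays. The submitters' processing notes name RMA, and the authors' deposited table holds its log2 signals, with a column for each array. Which program ran it, and with what settings, is not given in the sources used here. Columns and dose groups follow the labels. Arrays carry no read depth, so their number limits precision.

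After 57 controls were set aside, 31042 probe sets were tested with limma 3.58.1 in R 4.3.3 (lmFit and eBayes, 1 coefficient per group, two-sided, Benjamini-Hochberg over all of them, threshold 0.05) without further scaling or filter; the fit was tested on simulated data. Of these, 20826 name 1 gene, 436 several and 9780 none. Symbols were updated through Entrez identifiers against the RefSeq table of GRCr8 (20758 matched, 68 kept). A gene is represented by its probe set of highest mean.

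Members and lists were chosen with earlier results of these data known. Named genes were a set of index genes (such as Psma6, Psmb5 to Psmb10, Psme1 and Nfe2l1), the 8 largest called changes at 1032.5 mg/kg and 4 at each lower dose, the highest and lowest member of each role at 1032.5 mg/kg and up to 6 called companions. The second probe sets, the genes with called slopes, Psmb4, Psmd7, Psmd10, Uchl5, Tap1 and B2m were added after their values were seen.

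The marker lists were hepatocyte, Kupffer cell, lymphocyte, neutrophil, stellate cell, endothelium, cholangiocyte and red cell. Of the last 4, stellate cell markers were called lower for 1 of 6 at 258.1, 4 at 516.2 and 2 at 1032.5 mg/kg, endothelial markers for 1 of 4 at 516.2 mg/kg, red cell markers for 2 of 2 at 1032.5 mg/kg, and 1 of 3 cholangiocyte markers was called higher at 258.1, 516.2 and 1032.5 mg/kg.

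Same-numbered arrays of different groups had correlated deviations of -0.29 to 0.36 (median 0.03) over 45 pairs, and 15 exceeded 0.1. The labels state no pairing and these values do not settle it, so the numbers were left out of the main fit. Alternatives were cyclic loess, median subtraction, brighter probe sets, 1 probe set per gene, averaged probe sets per gene, another variance model, array weights, the block, RNA integrity, compared groups alone, dose scales and each array left out in turn.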

Additional observations from a re-analysis of the deposited data

Results flagged for a closer look

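Nfe2l1 in the vehicle group was uneven: replicate 6 read 8.24 where the other 5 vehicle arrays lay between 8.84 and 9.07, a gap larger than Dixon's test allows for 6 values. It was the single one so marked among 32 items tested in the vehicle group, 31 genes and the mean over all members, where chance marks about 1 in 20.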

How the results depend on the processing

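Counts of members called held within 1.5 times under every alternative at 64.6 mg/kg (0 throughout) and differed elsewhere as follows; the causes were not tested. Array weights gave 2 at 129.2 mg/kg (Psmb8 and Psmb10, both lower), where 8.12% of all genes were called. They gave 2 at 516.2 and 14 at 1032.5 mg/kg, beside 11.7% and 13.1% of all genes. Slopes called with them were 15 over all arrays and 14 over the dosed arrays. Cyclic loess gave 0 at 258.1 mg/kg, 2 slopes over the dosed arrays, and a mean change of 0.0198 in place of 0.0994 at 516.2 mg/kg. Subtracting each array's median gave 3 at 516.2 mg/kg and 14 and 7 slopes; brighter probe sets only 3, 14 and 8; 1 probe set per gene, or averaged probe sets, 3, 12 and 7 each, the added genes at 516.2 mg/kg being Psmb4 and Psme2. Comparing only the groups concerned gave 0 at 258.1 and 2 at 516.2 mg/kg. A fold of at least 1.5 left 0 at 258.1, 516.2 and 1032.5 mg/kg, and the dose in mg/kg left 0 slopes over the dosed arrays.

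Whether the replicate numbers pair the arrays is not settled (9 of 18 arrays were closest to their own number). As a block in the limma fit they gave 0 members at 258.1 mg/kg and 15 slopes over all arrays. The adjusted p-values were then 0.0565 for Psmd5 at 1032.5 and 0.0569 for Psme1 at 258.1 mg/kg.

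With each array left out in turn, counts ran from 0 to 0 at 64.6 and 129.2, 0 to 1 at 258.1, 1 to 2 at 516.2 and 1 to 3 at 1032.5 mg/kg, 6 to 14 for slopes over all arrays and 0 to 6 over the dosed arrays. Mean changes ran from -0.08 to -0.05, -0.04 to 0.01, 0.02 to 0.10, 0.07 to 0.14 and 0.12 to 0.18 by dose.

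Signs turned for 2 called genes with another probe set (Psme1, -0.0230 at 1032.5 mg/kg; Ubqln2, -0.00940 at 516.2 and -0.0761 at 1032.5 mg/kg) and otherwise only for genes not called at 1032.5 mg/kg: Psmc4 to -0.0520 and Psmd14 to 0.231 with another probe set, Psmd14 to 0.0825 with its probe sets averaged, Psmd1 to 0.0196 and Psmc3ip to -0.00587 with array weights, Psmb8 to 0.0338 and Psmc3ip to -0.0114 with RNA integrity, and with single arrays left out Pomp (lowest -0.0502, highest 0.187), Psmb8 (-0.158 to 0.0176), Psmc3ip (-0.0124 to 0.0499) and Psmd1 (-0.157 to 0.0345).

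Beyond arrays left out, Irf1 lost its calls at 64.6 and 258.1 mg/kg with the replicate block and with only the groups concerned. Sqstm1 lost its call with cyclic loess, averaged or other probe sets, the replicate block, RNA integrity and only the groups concerned. Ubqln2 lost both calls with averaged or other probe sets and the replicate block, and that at 516.2 mg/kg also with cyclic loess and RNA integrity. Psma6 lost its call with only the groups concerned (adjusted p = 0.0937). The number of arrays limits the precision.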
